A study of Arabidopsis thaliana with 13 samples.

Results

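The WRKY family of Arabidopsis thaliana was examined through the probe sets that the platform annotation assigns to exactly 1 gene whose symbol is WRKY followed by digits. The rule found 6 genes with 1 probe set each, of 13350 gene symbols with a probe set of their own and 22746 probe sets tested: WRKY6 (AT1G62300, 264746_at), WRKY20 (AT4G26640, 253983_at), WRKY22 (AT4G01250, 255568_at), WRKY42 (AT4G04450, 255337_at), WRKY47 (AT4G01720, 255596_at) and WRKY53 (AT4G23810, 254231_at). A gene table of assembly TAIR10.1 lists 67 genes with such a symbol, and the other 61 were not analysed here. The 6 are therefore a small sample of the family.

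WRKY proteins are plant transcription factors named after a short conserved amino acid motif that lies beside a zinc finger. They bind W box elements in promoters, many of which belong to other WRKY genes, and they act in defence, abiotic stress and leaf senescence. The family is divided by domain number and zinc finger type. WRKY20 belongs to group I, whose members carry a pair of WRKY domains, WRKY22 to group IIe, and WRKY53 to group III. WRKY6, WRKY42 and WRKY47 all belong to group IIb.

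The series was made to find early targets of ANAC092 and ANAC059, NAC transcription factors known as promoters of leaf senescence. In the induction experiment, whole shoots of 3-week-old Col-0 seedlings were taken after 5 h with 10 µM estradiol. The seedlings carried ANAC092 under an estradiol-inducible system (3 arrays), ANAC059 under the same system (2 arrays), or the inducible vector without an insert (3 arrays). Both inducible lines and the empty vector plants were given estradiol, so the comparison is between constructs under the same treatment. In the leaf experiment, plants grown in soil for 38 days gave leaf 11 of an ANAC092 T-DNA insertion line, an ANAC059 T-DNA insertion line and Col-0 wild type, with 1 array each. The sources used here do not give the number of independent transformants or of plants pooled per array. Shoots and leaves hold several cell types, so fewer cells of a type and less RNA per cell cannot be told apart.

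Values are log2 signals after RMA, in which 1 unit is a 2-fold difference. RMA was run separately on the 6 arrays of the ANAC092 set, the 4 arrays of the ANAC059 set and the 3 leaf arrays. Changes were therefore computed only within a set. Where levels of different sets stand side by side, their differences were not tested. The empty vector arrays of the ANAC059 set carry the titles of empty vector replicates 1 and 2, and differ from the arrays so numbered in the ANAC092 set with an SD of 0.142 across probe sets, below the SD of 0.178 between replicates 1 and 2 themselves. They were treated as the same hybridisations, and the inductions share these controls. Empty vector replicate 3 stood apart from replicates 1 and 2 (SD 0.386 and 0.351). ANAC092 induced replicate 2 likewise stood apart from induced replicates 1 and 3 (SD 0.364 and 0.343), which lay close together (SD 0.129). Of 7 listed green tissue markers 3 had a probe set of 1 gene, of 7 root markers 1, and of 6 floral markers 0, so the tissue labels were checked only in part. The log2 of the summed green signal was 12.71 to 12.99 after ANAC092 induction, against 12.94 to 13.33 for its controls, and 13.40 to 13.47 after ANAC059 induction, against 12.98 to 13.08. PYK10, a beta-glucosidase gene known for high expression in roots, read 11.77 to 11.88 on ANAC092 induced shoot arrays. It read 11.70 to 11.88 on ANAC059 induced shoot arrays and 11.29 to 11.82 over the empty vector arrays of both sets. The medians of these arrays were 7.55 to 7.71. On the separately normalized leaf 11 arrays PYK10 read 4.23 in wild type, 3.98 in the ANAC059 line and 4.04 in the ANAC092 line. Whether the shoot samples held root tissue was not tested.

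WRKY53 is an early regulator of leaf senescence that also responds to pathogens and oxidative signals. After ANAC059 induction it read 9.47 and 9.55, against 8.71 and 9.02 on the empty vector arrays. Both induced arrays lay above both controls. The rise was 1.57-fold (95% interval 1.29 to 1.92; log2 0.65 ± 0.12 SE, n = 2 per group, limma adjusted p = 0.0447). Only 0.840% of all probe sets had a higher change. The call was close to the threshold of 0.05 and held in 1 of the 4 fits that left out 1 array, the one without empty vector replicate 2 (log2 0.81, limma adjusted p = 0.0420). Without ANAC059 induced replicate 1 or 2 or empty vector replicate 1, the change was 0.69, 0.61 and 0.50 and the adjusted p 0.0917, 0.116 and 0.169.

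After ANAC092 induction WRKY53 read 9.76, 9.59 and 9.78, against 8.73, 9.33 and 9.94 for empty vector replicates 1, 2 and 3. The induced arrays were close together, while the control arrays spread over more than 2-fold and reached both below and above them. The mean change of 0.38 did not pass (95% interval -0.26 to 1.02, n = 3 per group, limma adjusted p = 0.648). Empty vector replicate 3 exceeded the mean of replicates 1 and 2 by 0.91, a departure that only 2.44% of all probe sets surpassed in size. Without replicate 3 the change was 0.68 (limma adjusted p = 0.137). Without replicate 1, the lowest control, it was 0.08 (adjusted p = 0.942), and without replicate 2 it was 0.38 (adjusted p = 0.791). Against replicate 3 alone the change was -0.23, so the size and direction rested on which control arrays were used.

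Set against the same control hybridisations, empty vector replicates 1 and 2, WRKY53 was thus 0.68 higher after ANAC092 induction and 0.65 higher after ANAC059 induction. These values share their controls, and the difference between the inductions was not tested. Separate normalization gave the controls unlike WRKY53 values. Replicate 1 read 8.73 in the ANAC092 set and 8.71 in the ANAC059 set, and replicate 2 read 9.33 and 9.02. The changes of 0.68 and 0.65 were therefore not taken from equal control levels. A measure of RNA quality is the log2 gap between the 3' and the 5' probe set of actin, which widens with degraded RNA or short labelled product. This gap was 2.47, 2.89 and 2.44 for ANAC092 induced replicates 1, 2 and 3 and 1.96, 2.19 and 2.51 for empty vector replicates 1, 2 and 3, where it ran in the same order as WRKY53. It was 2.59 and 2.45 for ANAC059 induced replicates, against 2.03 and 2.26 for their controls. For GAPDH the gap ran in the opposite order over the 3 empty vector replicates (0.509, 0.0655 and -0.140). The GAPDH gap was 0.129, 0.177 and 0.254 for ANAC092 induced replicates 1, 2 and 3. It was -0.006 and 0.057 for ANAC059 induced replicates, against 0.452 and 0.030 for their controls, so it was not wider on both induced arrays as for actin. The part of RNA quality in the WRKY53 values was not tested.

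**Figure D1:**
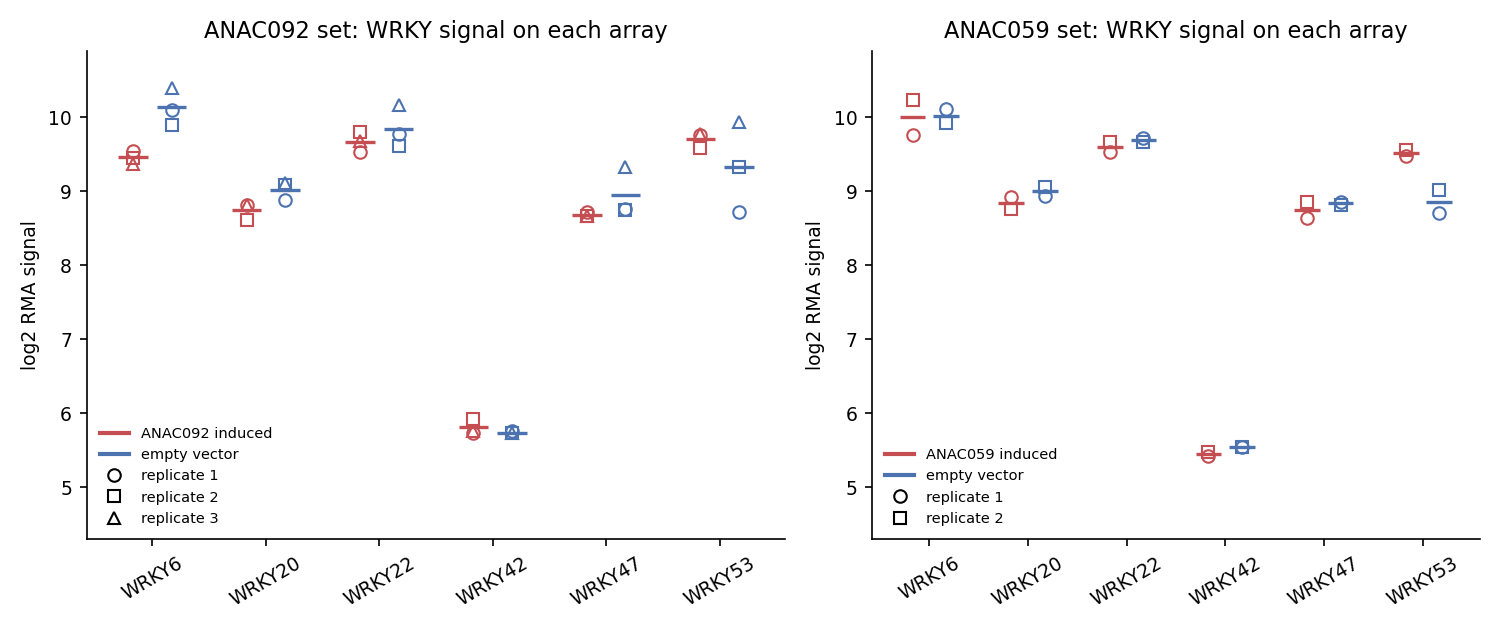
Log2 RMA signal of each WRKY probe set on every induction array, with induced arrays (red) left of empty vector arrays (blue); marker shapes give the replicate number and bars the group means. Left panel, ANAC092 set; right panel, ANAC059 set. In the ANAC092 set WRKY6 (9.37 to 9.55 on induced arrays, 9.90 to 10.40 on empty vector arrays), WRKY20 and WRKY47 lie wholly below the controls. So do 12.4% of all probe sets. In the ANAC059 set WRKY53 lies wholly above the controls, as do 26.2% of all probe sets. WRKY20, WRKY22 and WRKY42 lie wholly below them there, as do 26.8%.

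In leaf 11, WRKY53 read 10.78 in the ANAC059 insertion line, 8.82 in the ANAC092 insertion line and 8.87 in wild type. The ANAC059 line was 3.75-fold above wild type (log2 1.91), while the ANAC092 line differed by -0.05. With 1 array per genotype these differences have no replicate check. In the ANAC059 line 128 of the 22746 probe sets had a higher difference. WRKY53 was the 1 member past 2-fold there, where 4.65% of all probe sets were at least 2-fold higher and 0.611% at least 2-fold lower. No member passed 2-fold in the ANAC092 line, where 0.980% were at least 2-fold higher and 0.822% at least 2-fold lower. At 1.5-fold the counts were also 1 and 0, where 13.3% and 6.86% of all probe sets lay past that size in the ANAC059 and the ANAC092 line. WRKY53 was higher than its control both where ANAC059 was induced in seedling shoots and in the leaf of the ANAC059 insertion line, in different tissues and at different ages.

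WRKY6 is a senescence-associated and defence-associated factor that activates the receptor-like kinase gene SIRK and represses the phosphate transporter gene PHO1. After ANAC092 induction it read 9.55, 9.45 and 9.37, against 10.10, 9.90 and 10.40 for the empty vector. Every induced array lay below every control. The induced level was 62.6% of the control level (95% interval 49.7 to 78.8; log2 -0.68 ± 0.14 SE, n = 3 per group), and 2.94% of all probe sets had a change of larger size. The difference narrowly missed the threshold over all probe sets (limma adjusted p = 0.0656). Over 12 alternative fits it passed in 3. These were quantile normalization (-0.69, limma adjusted p = 0.0421), dim probe sets left out (adjusted p = 0.0481) and empty vector replicate 3 as the only control (-0.94, adjusted p = 0.0444), the highest WRKY6 control, so that a larger difference followed from the choice of that array. It did not pass with an intensity trend (adjusted p = 0.0658), with induced replicates 1 and 3 averaged (0.205) or in any of the 6 fits that left out 1 array (-0.79 to -0.54, limma adjusted p 0.0573 to 0.263). Of the 3 green tissue markers measured, PRK and PORB were likewise lower on every ANAC092 induced array than on every control, with changes of -0.65 and -0.42 that did not pass (limma adjusted p = 0.0788 and 0.158), and RCA had a change of -0.15 (adjusted p = 0.786). Their part in the WRKY6 difference was not tested.

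After ANAC059 induction WRKY6 read 9.76 and 10.24, against 10.11 and 9.93 for the empty vector. The induced arrays lay on either side of the controls. The change was -0.02 (95% interval -0.41 to 0.37, limma adjusted p = 0.958). Against empty vector replicates 1 and 2 alone, ANAC092 induction gave -0.54 in its own set (limma adjusted p = 0.0573), beside the -0.02 of ANAC059 induction. The inductions share these controls and their difference was not tested. In leaf 11 WRKY6 read 6.86 in the ANAC092 line, 7.57 in the ANAC059 line and 7.33 in wild type, which put the ANAC092 line 0.47 below and the ANAC059 line 0.24 above wild type. After quantile normalization of the leaf arrays these differences were -0.44 and 0.10.

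Neither group IIb relative of WRKY6 passed after either induction. WRKY42, known with WRKY6 as a repressor of PHO1, was dim on these arrays, with means of 5.77 in the ANAC092 set and 5.50 in the ANAC059 set, below the 25th percentile of probe set means (6.15 and 6.01). It read 5.73, 5.93 and 5.76 after ANAC092 induction, against 5.76, 5.73 and 5.73 for the empty vector, and the groups overlapped. The change of 0.07 had a 95% interval of -0.16 to 0.30 (limma adjusted p = 0.844). After ANAC059 induction it read 5.43 and 5.48, against 5.54 and 5.54 on the empty vector arrays. Both induced arrays were lower, but the change of -0.09 did not pass (95% interval -0.29 to 0.11, limma adjusted p = 0.593) and was 0.01 after quantile normalization.

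WRKY47 read 8.72, 8.67 and 8.67 after ANAC092 induction, against 8.76, 8.75 and 9.33 for the empty vector. All induced arrays lay below the controls, by a narrow margin for replicates 1 and 2 and a wide one for replicate 3. The change of -0.26 did not pass (95% interval -0.65 to 0.13, limma adjusted p = 0.607). It was -0.07 without empty vector replicate 3 (adjusted p = 0.706) and -0.65 with that array as the only control (adjusted p = 0.0639). After ANAC059 induction WRKY47 read 8.64 and 8.86, against 8.86 and 8.82 on the empty vector arrays, and the groups overlapped. The change was -0.09 (95% interval -0.34 to 0.16, limma adjusted p = 0.656).

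WRKY22 acts downstream of the flagellin-triggered MAP kinase cascade and is also linked to dark-induced leaf senescence. It read 9.53, 9.80 and 9.68 after ANAC092 induction, against 9.77, 9.61 and 10.17 for the empty vector. The groups overlapped, with empty vector replicate 3 the highest array of the set. The change of -0.18 did not pass (95% interval -0.55 to 0.19, limma adjusted p = 0.721), and it was -0.02 without empty vector replicate 3. After ANAC059 induction WRKY22 read 9.53 and 9.66, against 9.72 and 9.67 on the empty vector arrays. Both induced arrays lay below both controls, by a difference of -0.10 that did not pass (95% interval -0.32 to 0.12, limma adjusted p = 0.579).

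WRKY20, the group I member, read 8.81, 8.61 and 8.81 after ANAC092 induction, against 8.88, 9.08 and 9.11 for the empty vector. Every induced array was below every control. The change of -0.28 (95% interval -0.54 to -0.01) did not pass over all probe sets (limma adjusted p = 0.392), and over 12 alternative settings it stayed between -0.36 and -0.21 without a call. After ANAC059 induction WRKY20 read 8.92 and 8.77, against 8.94 and 9.06 on the empty vector arrays. These groups did not overlap either, but the change of -0.16 did not pass (95% interval -0.39 to 0.08, limma adjusted p = 0.413).

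**Figure D2:**
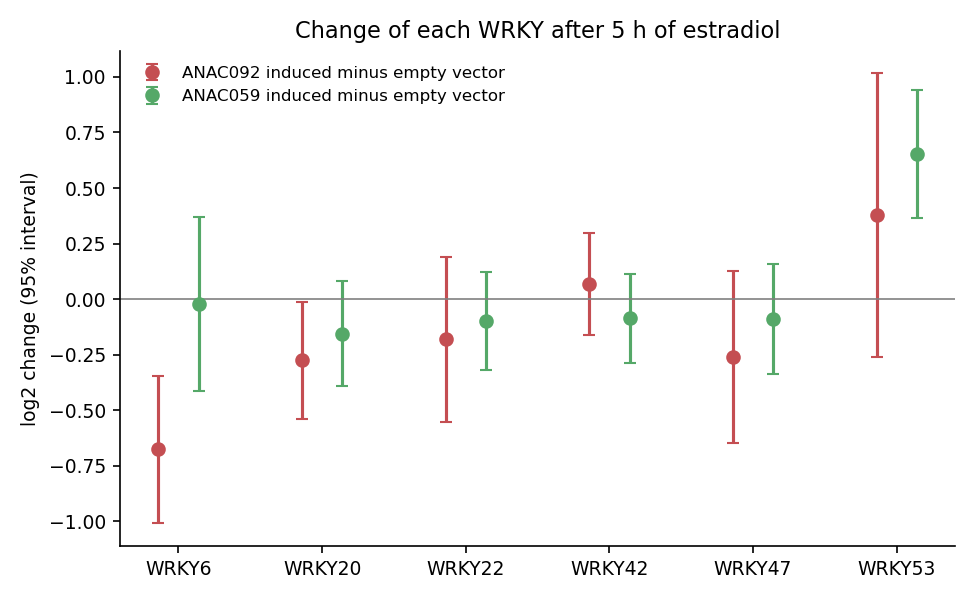
Log2 change of each WRKY probe set after ANAC092 induction (red) and ANAC059 induction (green), each against the empty vector arrays of its own set; points are limma estimates and bars their 95% intervals. The intervals of WRKY53 after ANAC059 induction and of WRKY6 and WRKY20 after ANAC092 induction exclude 0, and of these WRKY53 alone passed after adjustment over all probe sets.

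Counted over the family, limma called 0 of 6 members after ANAC092 induction, where it called 2.23% of all probe sets, and 2 members had an unadjusted p under 0.05 (WRKY6 and WRKY20), where 12% of all probe sets did. After ANAC059 induction it called 1 of 6, WRKY53, where it called 2.99% of all probe sets, and WRKY53 was also the 1 member with an unadjusted p under 0.05, where 20.4% of all probe sets had one. The ANAC092 induced arrays lay wholly below the controls for 3 members (WRKY6, WRKY20 and WRKY47), as for 12.4% of all probe sets, and wholly above them for 0, as for 7.98%. The ANAC059 induced arrays lay wholly below the controls for 3 (WRKY20, WRKY22 and WRKY42), as for 26.8% of all probe sets, and wholly above them for 1, as for 26.2%. The median change of the 6 members was -0.22 after ANAC092 induction and -0.09 after ANAC059 induction, beside medians over all probe sets of -0.03 and -0.01. Single arrays moved both: the ANAC092 median was -0.04 without empty vector replicate 3 and -0.43 against that array alone, and the ANAC059 median was -0.01 without induced replicate 1 and -0.14 without induced replicate 2. WRKY20 was below all controls in both inductions, which share control arrays, by a narrow margin in the ANAC059 set (8.92 against 8.94). Neither change passed, and the share of all probe sets below the controls in both inductions was not counted.

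For WRKY22, WRKY47 and WRKY53 the control arrays of the ANAC092 set spanned more than the mean change. Empty vector replicate 3 lay above replicates 1 and 2 for 5 of 6 members, as it did for 42.1% of all probe sets, and below them for WRKY42. Relative to the mean of replicates 1 and 2, the median of the 6 members was -0.10, 0.01 and -0.05 for ANAC092 induced replicates 1, 2 and 3, against 0.44 for empty vector replicate 3. WRKY53 departed by 0.91 in empty vector replicate 3, WRKY47 by 0.58, WRKY22 by 0.48, WRKY6 by 0.40 and WRKY20 by 0.13. WRKY6 and WRKY20 were lower on all ANAC092 induced arrays than on each of the other controls too, with departures of -0.45, -0.55 and -0.63 for WRKY6 and -0.16, -0.36 and -0.17 for WRKY20 from that mean. For WRKY47 these departures were -0.03, -0.08 and -0.09, smaller in size than the 0.58 of empty vector replicate 3.

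**Figure D3:**
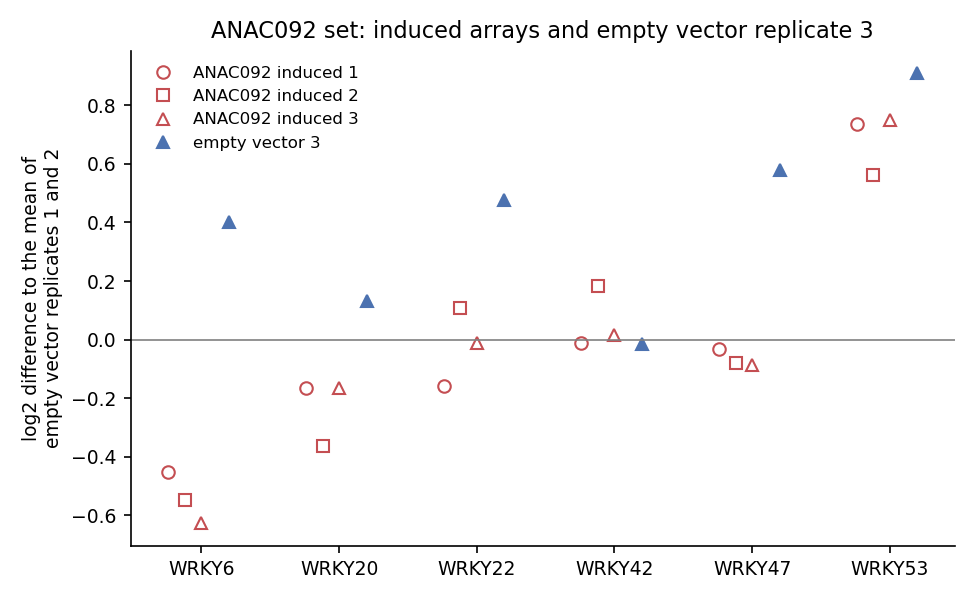
Log2 difference of each ANAC092 induced array (red, open) and of empty vector replicate 3 (blue, filled) to the average of the other empty vector replicates, for each WRKY probe set of the ANAC092 set. Empty vector replicate 3 lies above 0 for 5 of 6 genes, by 0.91 for WRKY53, and for WRKY6 the induced arrays lie on the other side of 0, at -0.45 to -0.63.

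In leaf 11 the other members stayed within 1.5-fold of wild type in both lines. WRKY20 read 7.15 in the ANAC092 line, 7.57 in the ANAC059 line and 7.57 in wild type, so that the ANAC092 line lay 0.42 lower and the ANAC059 line had exactly the wild-type value. Exact ties with wild type were common in this 3-array set, at 27.2% of probe sets in the ANAC092 line and 22.1% in the ANAC059 line. WRKY22 was at 5.67 in both lines and 5.78 in wild type. WRKY47 read 8.08 in the ANAC092 line, 8.27 in the ANAC059 line and 8.31 in wild type. WRKY42 read 4.79, 4.53 and 4.92 in the same order, below 5.76, the median of all leaf values. All 6 members were below wild type in the ANAC092 line, by 0.05 to 0.47, as were 39% of all probe sets, and 3 were below it in the ANAC059 line, as were 47.2%. After quantile normalization of the leaf arrays WRKY53 was 0.01 above wild type in the ANAC092 line and 1.89 above it in the ANAC059 line.

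**Figure D4:**
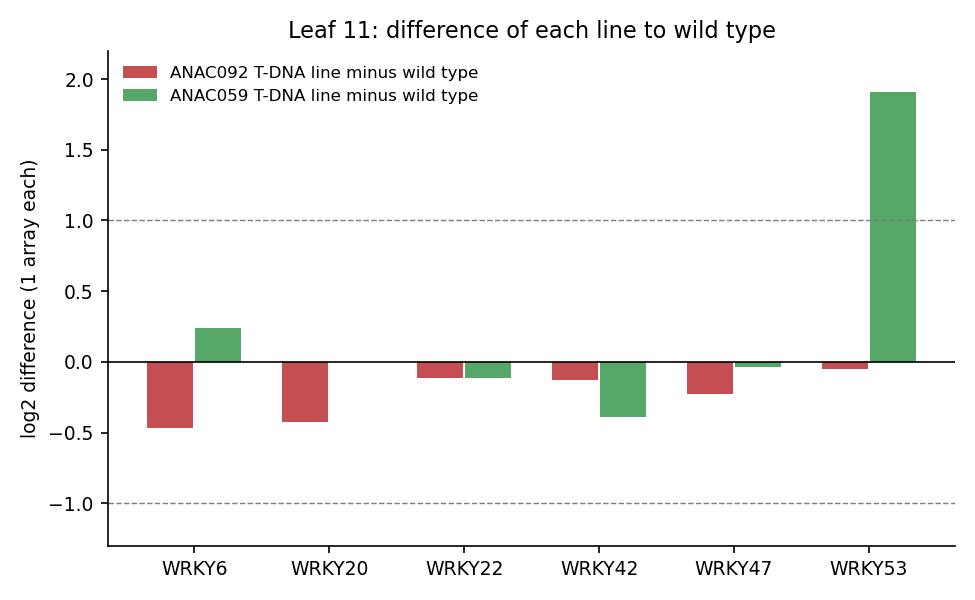
Log2 difference to wild type of each WRKY probe set in leaf 11 of the ANAC092 T-DNA line (red) and the ANAC059 T-DNA line (green), with 1 array per genotype and dashed lines at 2-fold. WRKY53 in the ANAC059 line, at 1.91, is the single bar past 2-fold, and WRKY20 in that line is at 0.

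Genes that work with WRKY factors were covered thinly, with 1 of 6 listed VQ-family partners, 0 of 9 genes of the upstream MAP kinase cascade, 1 of 16 genes of salicylic acid synthesis and signalling, 0 of 9 targets or regulators of WRKY factors, 1 of 6 leaf senescence markers and 1 of 8 rapid touch and stress genes having a probe set of 1 gene. ZAT10, a zinc finger repressor gene induced rapidly by stress, read 12.58 and 12.78 after ANAC059 induction, against 12.15 and 12.12 for the empty vector, a rise of 0.54 ± 0.10 SE (limma adjusted p = 0.0436). Both induced arrays were higher, as for WRKY53. Of the 4 fits that left out 1 array the call held without induced replicate 1 (limma adjusted p = 0.0480), and the adjusted p was 0.127, 0.180 and 0.116 without induced replicate 2, empty vector replicate 1 and empty vector replicate 2. After ANAC092 induction ZAT10 read 12.37, 12.55 and 12.42, against 12.11, 12.07 and 11.81 on the empty vector arrays, and the change of 0.45 did not pass (adjusted p = 0.132). Among the control arrays ZAT10 was lowest in empty vector replicate 3, where WRKY53 was highest. In leaf 11 ZAT10 was 1.27 above wild type in the ANAC059 line and 0.45 above it in the ANAC092 line.

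SAG101, a lipase-like partner of EDS1 in defence signalling, had a change of 0.39 after ANAC059 induction (limma adjusted p = 0.137) and of 0.21 after ANAC092 induction (adjusted p = 0.780), and neither passed. The value after ANAC092 induction was 0.49 without empty vector replicate 3 (limma adjusted p = 0.0986) and 0.03 without empty vector replicate 1. In the leaf it was 0.91 above wild type in the ANAC059 line and 0.64 below it in the ANAC092 line. Its wild-type and ANAC092 line values there (5.62 and 4.98) were below 5.76, the median of all leaf values. IKU1, a VQ-motif gene that acts with WRKY10 in seed development, had a change of 0.28 after ANAC059 induction (limma adjusted p = 0.179) and 0.08 after ANAC092 induction (adjusted p = 0.919), and neither passed. Without empty vector replicate 3 the IKU1 value after ANAC092 induction was 0.31 (limma adjusted p = 0.218), and it was -0.03 and -0.04 without empty vector replicates 1 and 2. SAG29, a SWEET transporter gene and marker of senescence, rose by 4.55 after ANAC092 induction (limma adjusted p = 4.76e-05), while WRKY53, also used to follow senescence, had a change of 0.38 that did not pass. RCA, the Rubisco activase gene among the green tissue markers, rose beside WRKY53 after ANAC059 induction, by 0.63 (limma adjusted p = 0.0251), a call that also held only without induced replicate 1 of those fits (0.0474) and was at 0.0869, 0.139 and 0.0620 in the other three. The other green markers PORB and PRK had changes of -0.03 and 0.07 after ANAC059 induction and did not pass. The part of tissue makeup in the WRKY53 rise was not tested.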

How the data were processed

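The members and gene lists were chosen with earlier results of these data known. The 13 profiles come from Affymetrix ATH1 arrays. The deposited values are log2 signals that the authors made with RMA, per the submitters' processing notes and the labels, in 3 separately normalized sets; the software version and build are not given in the sources used here. Quantile normalization within RMA hides a change shared by most transcripts, and the array number limits the precision. No detection calls were used.

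Of 22810 probe sets 64 controls were left out; 13513 had 1 gene, 503 several and 8730 none in the platform annotation, so members may lie among the unnamed. Neither ANAC gene was checked in its own probe set. No sequences or coordinates are given. Induced and empty vector arrays were compared in each set with limma 3.58.1 in R 4.3.3 by lmFit and eBayes. The two-sided fit had no term but group, and p-values were adjusted by Benjamini-Hochberg over 22746 probe sets at a threshold of 0.05. Leaf differences had no test. The replicates are biological per the titles. All members could be named; genes of other lists were named where called, plus up to 3 of each list. ZAP1 and the control probe sets were added after values were seen. Alternatives were the replicate number as a block, each array left out, a dim filter (mean under the 25th percentile), quantile normalization, an intensity trend, induced replicates 1 and 3 averaged and a fit against empty vector replicate 3 alone.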

Additional observations from a re-analysis of the deposited data

How the results depend on the processing

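The count of called members after ANAC092 induction was 0, against 1 (WRKY6) with quantile normalization, with dim probe sets left out and against empty vector replicate 3 alone. WRKY6 then changed by -0.69 (limma adjusted p 0.0421), -0.68 (0.0481) and -0.94 (0.0444). After ANAC059 induction the count of 1 (WRKY53) was 0 or 1 when single arrays were left out (0 to 1), with a WRKY53 change of 0.50 to 0.81. With the replicate block the count was 0, and WRKY53 kept its change of 0.65 with a limma adjusted p of 0.120; that fit called 0 of 22746 probe sets and had 4131 with an unadjusted p under 0.05. Replicate numbers were not taken as pairs, since same-numbered arrays correlated in their deviations from the group means at -0.11, 0.27 and 0.10 in the ANAC092 set, and the differences between replicates 1 and 2 at 0.03 in the ANAC059 set. With the block the ANAC092 set gave 553 calls, against 507 without it, and WRKY6 had a limma adjusted p of 0.0619. Changes of uncalled members turned direction for WRKY53 after ANAC092 induction (-0.23 against empty vector replicate 3 alone), and after ANAC059 induction for WRKY42 (0.012 with quantile normalization), WRKY47 (-0.20 to 0.020 over the fits without 1 array) and WRKY6 (-0.26 to 0.22 over the fits without 1 array). The cause was not tested. The block also ended the ANAC059 calls of ZAT10 (adjusted p 0.144) and RCA (0.0942). Where a fit left 1 array in a group, that array was assumed to vary like the others. The leaf counts of 0 and 1 were the same with quantile normalization, without dim probe sets and at 1.5-fold. WRKY42 could not be fitted with dim probe sets left out, as it was among them.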

Other observations

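ZAP1 (AT2G04880, 263626_at), which the gene table also lists as WRKY1, is a family gene outside the rule for its symbol and was added after its values were seen. In leaf 11 it read 6.73 in the ANAC059 line, 5.12 in the ANAC092 line and 5.03 in wild type. The ANAC059 line was 3.24-fold above wild type (log2 1.70), with 212 of 22746 probe sets higher, beside the 3.75-fold of WRKY53. For ZAP1 the wild-type and ANAC092 line values were below 5.76, the median of all leaf values, while WRKY53 read 8.87 in wild type. After ANAC059 induction ZAP1 read 8.54 and 8.47, against 8.28 and 8.61 on the empty vector arrays, and the groups overlapped (change 0.06, limma adjusted p = 0.815). After ANAC092 induction it read 8.51, 8.08 and 8.42, against 8.30, 8.39 and 8.83 on the empty vector arrays (change -0.17, limma adjusted p = 0.773). As for 5 of the 6 members, empty vector replicate 3 was the highest control array, by 0.49 over the mean of replicates 1 and 2.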
